A study of Mus musculus with 132 samples.

Results

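Tetraspanins are small membrane proteins that gather integrins, proteases and receptors into patches of the cell surface. Of this family, 7 genes are described here: Tspan12, Tspan18, Tspan32, Tspan33, Cd63, Cd82 and Cd151. They were taken by symbol as 7 of the 25146 genes in a count table of poly(A)-minus RNA-seq, and they had been chosen on earlier results of the same counts. The source of that choice does not say which comparison was used, so their RNA values are given as a description, without p-values. The family holds 31 genes in the table, and the other 24 were tested.

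The cells were mouse embryonic stem cells (mESCs) of the male E14-TG2a line (129/Ola), taken undifferentiated at day 0, sorted as Flk1+ mesoderm at day 4, or sorted as CD41+ hematopoietic progenitor cells (HPCs) at day 7 of a serum-free differentiation with BMP4, bFGF, Activin A, SCF and VEGF. The day 7 gate took cells without Ter119, a marker of maturing red cells, and without CD45. Wild-type cells gave 2 undifferentiated libraries, 3 mesoderm libraries and 4 HPC libraries. P1-CTCF-KO clones, which lack a CTCF site near the distal Runx1 promoter P1, gave 3 mesoderm and 3 HPC libraries, and P2-CTCF-KO clones, which lack the site near the proximal promoter P2, gave 3 mesoderm and 5 HPC libraries. Each knockout clone was grown from a single colony and carries a deletion of the site on both alleles by the Methods. The wild-type clones are named C6.1, C8.1 and B9.3, and the knockout clones are E7.1, E7.2 and E9.1 for P1-CTCF-KO and D10.1, D2.1 and another E9.1 for P2-CTCF-KO. The HPC libraries B9.3-2, D10.1-2 and D2.1-2 are repeats of a clone, and the undifferentiated libraries are technical replicates of 1 culture. The deletions remove no counted gene, so the counts cannot check the genotype labels.

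Total counts were 20532578 to 24283287 per library at day 0, 18233679 to 24406998 at day 4 and 7805102 to 13513677 at day 7. Ribosomal and multi-locus entries took 68.1% to 76.3% of them at day 0, 88.8% to 91% at day 4 and 87.8% to 89.1% at day 7, which left 878966 to 1584401 counts for all other genes in an HPC library. Ribosomal RNA depletion is named in the Methods only for the undifferentiated mESCs among these cells, so stage and library preparation cannot be told apart in any comparison with day 0. Levels are given as CPM, counts scaled to library sizes that TMM adjusts on the assumption that most genes do not differ. The TMM factors were 4.97 and 7.55 for undifferentiated mESCs, 0.381 to 1.19 in mesoderm and 0.574 to 1.19 in HPCs, so a level in mESCs is far lower as CPM than per total count, and its place against the other stages holds for this scaling only. The stages matched their markers: pluripotency genes summed to 19 to 23 CPM in undifferentiated mESCs and to at most 3.72 elsewhere. Flk1+ mesoderm genes summed to 24.8 to 74.6 in mesoderm and at most 19.5 elsewhere, and hematopoietic genes to 72.4 to 254 in HPCs and at most 22.2 elsewhere. These last lists include the genes of the sorted proteins, Kdr for Flk1 and Itga2b for CD41, so part of the match was set by the gates.

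As background, several of these proteins have well-known partners. Tspan12 is a co-receptor with Fzd4 and Lrp5 for the ligand Norrin in vessels. Tspan18 is an endothelial tetraspanin that binds the calcium channel Orai1, whose sensor is Stim1. Tspan32 is a tetraspanin of blood cells, known from platelets and T cells. Tspan33 belongs to the subgroup that carries the protease Adam10 to the surface and is known from red cell development. Cd63 marks late endosomes and exosomes and binds Timp1 and syntenin (Sdcbp), Cd151 binds the laminin integrins Itga3 and Itga6, and Cd82 is an inhibitor of cell movement that also acts in quiescent blood stem cells.

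The members lie on 4 chromosomes of the mm9 build. Tspan32 is at chr7:150190950-150205390 on the plus strand and Cd151 at chr7:148653260-148657380 on the plus strand. Tspan33 is at chr6:29644213-29668558 on the plus strand and Tspan12 at chr6:21721390-21802533 on the minus strand. Tspan18 is at chr2:93041916-93174644 and Cd82 at chr2:93259258-93303107, both on the minus strand, with 84.6 kb between them. Cd63 is at chr10:128345974-128349874 on the plus strand. Tspan32 lies 33.3 kb from Cd81 and Cd151 lies 3.75 kb from Tspan4, which are tetraspanin genes too.

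The 4 regions printed here are shown because they are open chromatin, or border it, at the members whose RNA differed most between stages. They are the 250 bases upstream of Tspan32 and of Tspan33, an intron region of Tspan18 that holds a pair of HPC peaks, and the HPC peak in the first intron of Tspan12. The Tspan18 region is called an intron by the gene span of the count table. It lies outside the shorter span of Tspan18 in the GENCODE annotation. Capitals mark exact matches, on either strand, to a RUNX motif, whose letters were TGTGGT. They mark matches to a GATA motif in the same way, searched as AGATAA. The E-box, which reads the same on both strands, was searched as CAGCTG. An ETS motif was searched too, as GGAAGT, and has no match in the printed regions. The sequences are from the NCBIM37 (mm9) genome, 5′ to 3′ on the strand of the gene.
Tspan32 upstream, chr7:150190700-150190949, plus strand: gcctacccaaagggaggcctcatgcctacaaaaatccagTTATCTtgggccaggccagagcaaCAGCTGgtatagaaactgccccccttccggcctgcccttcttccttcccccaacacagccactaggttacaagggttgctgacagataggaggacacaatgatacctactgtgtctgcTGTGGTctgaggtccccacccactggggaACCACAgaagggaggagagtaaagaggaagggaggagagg
Tspan33 upstream, chr6:29643963-29644212, plus strand: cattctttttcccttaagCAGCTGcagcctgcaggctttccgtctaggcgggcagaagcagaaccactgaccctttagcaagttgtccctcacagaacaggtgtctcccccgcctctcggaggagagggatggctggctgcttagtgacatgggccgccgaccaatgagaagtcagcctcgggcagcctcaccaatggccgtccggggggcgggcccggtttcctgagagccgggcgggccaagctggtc
Tspan18 intron, chr2:93143675-93143969, minus strand: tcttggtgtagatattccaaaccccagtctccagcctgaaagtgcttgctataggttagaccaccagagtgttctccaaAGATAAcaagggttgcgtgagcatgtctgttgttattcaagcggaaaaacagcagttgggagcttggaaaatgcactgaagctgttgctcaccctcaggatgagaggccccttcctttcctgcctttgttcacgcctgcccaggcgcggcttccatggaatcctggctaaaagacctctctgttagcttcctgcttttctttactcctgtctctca
Tspan12 intron, chr6:21802221-21802397, minus strand: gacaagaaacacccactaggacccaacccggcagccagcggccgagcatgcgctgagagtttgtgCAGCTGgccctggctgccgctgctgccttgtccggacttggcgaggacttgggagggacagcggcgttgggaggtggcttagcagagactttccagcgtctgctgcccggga

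Tspan32 differed most between mesoderm and HPCs among the members. Undifferentiated mESCs gave 0.0327 and 0.0294 CPM, from 6 and 3 reads. Wild-type mesoderm gave 0.116 CPM in B9.3 (2 reads), 0.121 in C6.1 (1 read) and 0.301 in C8.1 (5 reads). In wild-type HPCs it stood at 16.7 CPM in B9.3, 12.2 in B9.3-2, 13 in C6.1 and 17.7 in C8.1. No HPC library of any genotype overlapped a mesoderm or mESC library. Between mesoderm and HPCs, 33.6% of all genes tested did not overlap in wild type, 48% in P1-CTCF-KO and 30.2% in P2-CTCF-KO. These shares are within a genotype, and none was taken over all genotypes and mESCs together. P1-CTCF-KO mesoderm had 1, 1 and 2 reads and P1-CTCF-KO HPCs 14.6, 13.6 and 19.5 CPM. P2-CTCF-KO mesoderm had 0 reads in all 3 libraries, and P2-CTCF-KO HPCs 19.6, 15.3, 5.44, 10.9 and 15 CPM in D10.1, D10.1-2, D2.1, D2.1-2 and E9.1. The low HPC library D2.1 was still far above every mesoderm library.

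From mesoderm to HPCs, the fitted log2 fold change of Tspan32 was 6.26 ± 0.48 (SE) in wild type and 7.7 ± 0.53 in P1-CTCF-KO. With so few mesoderm reads, the ratio of pooled reads is given as well. It was 80 in wild type (95% counting interval 40.4 to 186, from 633 against 8 reads). In P1-CTCF-KO it was 226 (87.6 to 836, from 348 against 4 reads). Against the floor of 3 counts per library, P2-CTCF-KO HPCs were at least 55.9-fold higher than P2-CTCF-KO mesoderm. Intervals and floors cover counting error only and leave out the spread between libraries. In bulk samples, fewer cells of a type and less RNA per cell cannot be told apart, here or in the results that follow.

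Tspan33 was the other member whose HPC libraries lay above the mesoderm libraries in each of the 3 genotypes, but its HPC libraries spread more. Wild-type mesoderm gave 0.116, 0.85 and 0.781 CPM, and wild-type HPCs 1.63 in B9.3, 6.78 in B9.3-2, 6.9 in C6.1 and 2.83 in C8.1. The stages did not overlap in wild type, as in 33.6% of all genes, yet the HPC libraries spanned a wide range. P1-CTCF-KO mesoderm had 4, 3 and 0 reads and P1-CTCF-KO HPCs 1.22, 4.81 and 2.79 CPM in E7.1, E7.2 and E9.1. P2-CTCF-KO mesoderm had 3, 1 and 4 reads, and P2-CTCF-KO HPCs gave 2.71, 6.15, 1.6 and 7.6 CPM in the first 4 libraries of the order above, with the highest level in E9.1 (93 reads, against 28, 64, 23 and 72 in the others). Between mesoderm and HPCs its fitted log2 fold change was 3.03 ± 0.72 in wild type, 4.57 ± 0.9 in P1-CTCF-KO and 4.73 ± 0.82 in P2-CTCF-KO. The pooled ratios, with intervals for counting error only, were 8.09 (5.18 to 13.2), 26.4 (12.2 to 68) and 25.2 (12.6 to 58.9).

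**Figure D1:**
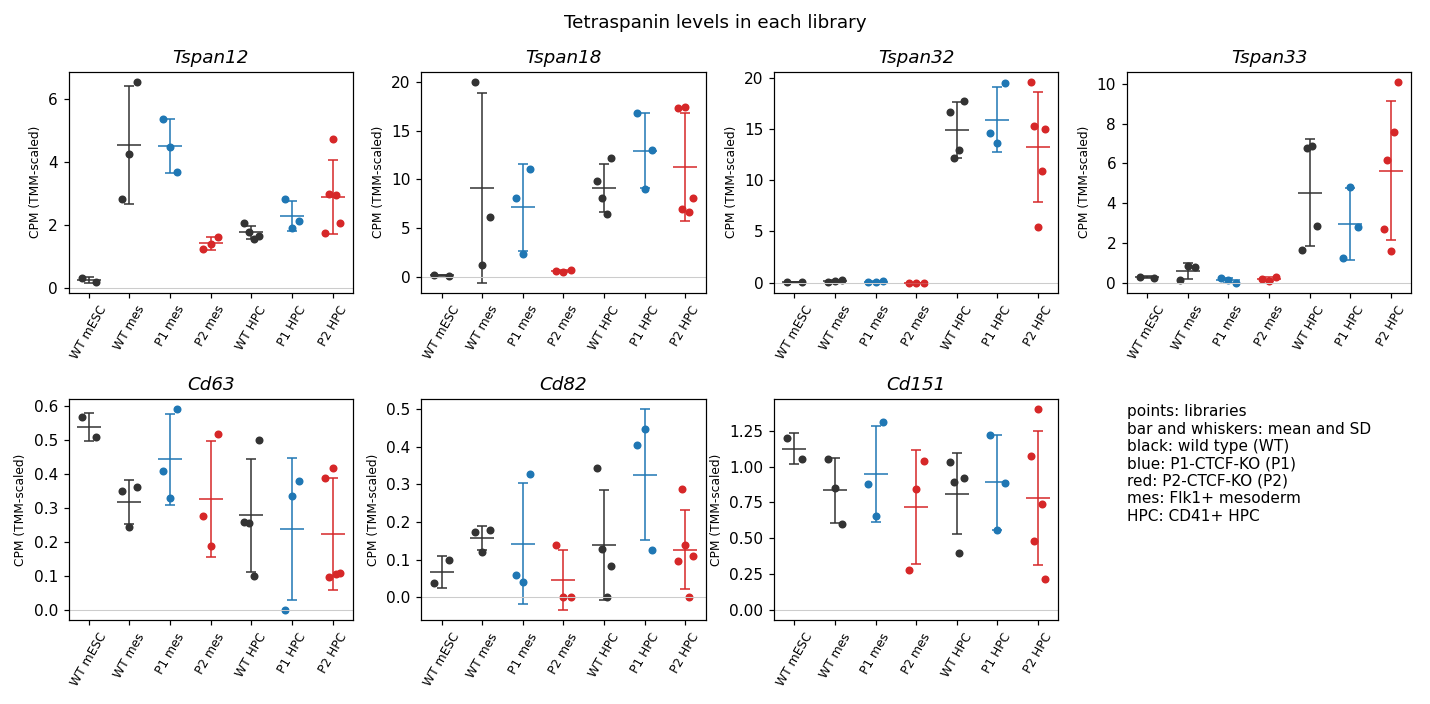
CPM (TMM-scaled) of each of the 7 tetraspanins in every library, 1 panel a gene with its own axis, grouped by genotype and stage, with bars and whiskers for mean and SD. Tspan32 and Tspan33 are higher in HPCs than in mesoderm of each genotype, Tspan18 is near 0 in P2-CTCF-KO mesoderm (0.469 to 0.666 CPM), and Cd63, Cd82 and Cd151 overlap between most groups.

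The repeat HPC libraries showed that Tspan33 and Tspan18 varied within a clone. Tspan33 was 4.16 times as high in B9.3-2 as in B9.3, 2.27 times in D10.1-2 against D10.1 and 4.74 times in D2.1-2 against D2.1. Tspan18 went the other way in each of those clones, with ratios of 0.823, 0.399 and 0.383. Across the 12 HPC libraries the log2 levels of Tspan33 and Tspan18 had a Pearson r of -0.84, and Tspan33 and Cd151 one of -0.82. These were the lowest among the member pairs, and they are a description of libraries that share clones. Cd151 had only 2 to 20 reads in an HPC library. Erythroid markers (Gata1, Klf1, Epor and Hbb-bh1, with none at 0 in HPCs) moved in the same direction as Tspan33 in these pairs, summing to 28.3 and 52.2 CPM in B9.3 and B9.3-2, 36 and 88.4 in D10.1 and D10.1-2, and 14.2 and 58.6 in D2.1 and D2.1-2. Over the HPC groups the erythroid sum ran from 28.3 to 55.3 in wild type, 27.1 to 77.9 in P1-CTCF-KO and 14.2 to 88.4 in P2-CTCF-KO, against at most 0.523 in mesoderm. The megakaryocyte list (Pf4, Gp9, Gp1ba and Itgb3) ran from 24.2 to 237 in HPCs and was lower in each repeat library, as Tspan18 was. Its sums were 126 and 48.6 in B9.3 and B9.3-2, 237 and 47.2 in D10.1 and D10.1-2, and 35.5 and 24.2 in D2.1 and D2.1-2. Endothelial markers (Cdh5, Pecam1, Tek and Tie1) were lower there too, at 20.4 and 14.7, 24 and 15.1, and 52.6 and 8.02 in the same pairs. The gate removed Ter119+ red cells. The part of erythroid, megakaryocyte or endothelial cells in the Tspan33, Tspan32 and Tspan18 levels was not tested.

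Tspan18 differed most among mesoderm libraries. Undifferentiated mESCs gave 0.196 and 0.0981 CPM. Wild-type mesoderm gave 20 CPM in B9.3, 1.21 in C6.1 and 6.19 in C8.1, from 345, 10 and 103 reads. P1-CTCF-KO mesoderm gave 8.05, 2.3 and 11.1 CPM in E7.1, E7.2 and E9.1. P2-CTCF-KO mesoderm gave 0.62, 0.469 and 0.666 CPM, from 9, 5 and 9 reads, and lay below every other mesoderm library. Between P2-CTCF-KO and wild type in mesoderm, 16.9% of all genes tested did not overlap. No share was taken against wild type and P1-CTCF-KO together. In HPCs the genotypes overlapped, at 9.79, 8.06, 6.41 and 12.2 CPM in wild type, 16.8, 9.05 and 13 in P1-CTCF-KO and 17.3, 6.92, 17.4, 6.65 and 8.04 in P2-CTCF-KO.

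In mesoderm, Tspan18 had a log2 difference of -3.97 ± 0.77 between P2-CTCF-KO and wild type and of -0.39 ± 0.61 between P1-CTCF-KO and wild type. The same wild-type libraries serve both. Leaving out wild-type clone B9.3 brought the P2-CTCF-KO difference to -2.71, and leaving out C6.1 to -4.46. The change from mesoderm to HPCs was 4.25 ± 0.75 in P2-CTCF-KO, 0.86 ± 0.62 in P1-CTCF-KO and -0.03 ± 0.58 in wild type. The wild-type value rests on single clones, being 1.24 without mesoderm B9.3 and -0.52 without mesoderm C6.1. Between genotypes in HPCs the log2 difference was 0.31 ± 0.51 for P2-CTCF-KO and 0.49 ± 0.58 for P1-CTCF-KO.

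The endothelial markers Cdh5, Pecam1, Tek and Tie1 moved with Tspan18 in mesoderm. Their sum was 67.1 CPM in wild-type B9.3, 1.46 in C6.1 and 8.3 in C8.1, and 15.1, 3.79 and 41.6 in P1-CTCF-KO E7.1, E7.2 and E9.1. It ran from 0.482 to 0.563 in P2-CTCF-KO mesoderm, with none of the 4 genes at 0 in all libraries. The 6 wild-type and P1-CTCF-KO libraries had the same order by Tspan18 as by this sum. The P2-CTCF-KO libraries did not: D2.1 had the highest sum of them (0.563) and the lowest Tspan18 level (0.469 CPM, from 5 reads). In P2-CTCF-KO mesoderm the Flk1+ mesoderm list was at 61.2 to 74.6 CPM, above the 24.8 to 44.5 of wild type, and the hematopoietic list at 3.1 to 9.18, against 8.19 to 22.2. In HPCs the endothelial sum was 11.3 to 20.4 in wild type, 16.2 to 22.3 in P1-CTCF-KO and 8.02 to 52.6 in P2-CTCF-KO. The part of these cells in the Tspan18 levels was not tested.

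**Figure D2:**
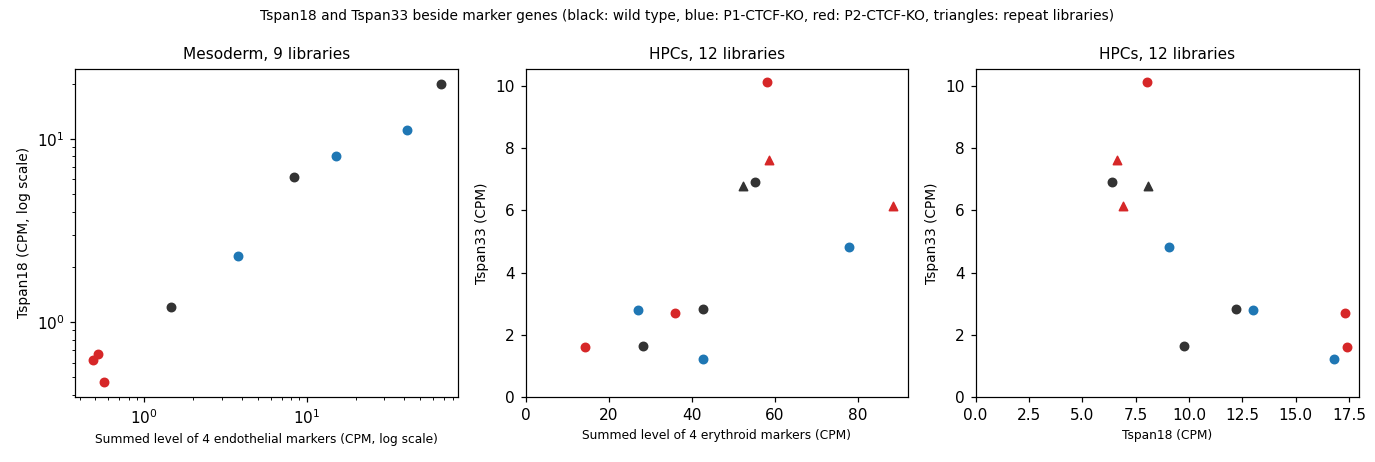
The left panel plots Tspan18 (CPM, log axis) against the summed level of 4 endothelial markers (CPM, log axis) in 9 mesoderm libraries, the middle panel Tspan33 (CPM) against the sum of 4 erythroid markers (CPM) in 12 HPC libraries, and the right panel Tspan33 against Tspan18 (CPM) in the same 12. Points are libraries colored by genotype, with triangles for repeat libraries. In mesoderm the P2-CTCF-KO points sit at the lower left, with Tspan18 at 0.469 to 0.666 CPM.

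Tspan12 was the member whose stages did not overlap in any genotype while the sign of the change differed between genotypes. Undifferentiated mESCs gave 0.338 and 0.206 CPM. Wild-type mesoderm gave 2.85, 4.25 and 6.55 CPM and P1-CTCF-KO mesoderm 5.37, 4.49 and 3.68. P2-CTCF-KO mesoderm gave 1.24, 1.41 and 1.63 CPM, below every other mesoderm library. The 16.9% of all genes given for Tspan18 holds for the comparison with wild type alone. Wild-type HPCs gave 2.06, 1.79, 1.58 and 1.67 CPM, P1-CTCF-KO HPCs 2.84, 1.9 and 2.15, and P2-CTCF-KO HPCs 1.74, 2.98, 4.74, 2.96 and 2.06. HPC libraries lay below mesoderm libraries in wild type and P1-CTCF-KO, and above them in P2-CTCF-KO, without overlap in any genotype, beside the 33.6%, 48% and 30.2% of all genes given for Tspan32.

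The log2 change of Tspan12 from mesoderm to HPCs was -1.36 ± 0.32 in wild type, -1 ± 0.35 in P1-CTCF-KO and 1.04 ± 0.33 in P2-CTCF-KO. Without each library in turn it ran from -1.62 to -0.98, from -1.16 to -0.85 and from 0.77 to 1.18. In mesoderm P2-CTCF-KO had a log2 difference from wild type of -1.67 ± 0.35, and P1-CTCF-KO one of -0.01 ± 0.32. In HPCs these were 0.72 ± 0.29 and 0.35 ± 0.35, with overlapping libraries. Of the receptor partners of Tspan12, Lrp5 averaged 8.79 CPM in P2-CTCF-KO mesoderm against 11.2 in wild type and 11.4 in P1-CTCF-KO, and Fzd4 0.281 against 0.697 and 0.813, and neither passed edgeR's quasi-likelihood test in P2-CTCF-KO against wild type (adjusted p = 0.84 for Lrp5 and 0.4 for Fzd4).

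Cd63, Cd151 and Cd82 had few reads, at most 9, 20 and 5 in a mesoderm or HPC library, and their mesoderm and HPC libraries overlapped in every genotype. Cd63 was at 0.568 and 0.51 CPM in undifferentiated mESCs, and its groups averaged from 0.223 CPM in P2-CTCF-KO HPCs to 0.443 in P1-CTCF-KO mesoderm. Cd151 was at 1.05 and 1.2 CPM in the mESC libraries, which are labelled as technical replicates. It averaged 0.832 ± 0.223 (SD, n = 3) in wild-type mesoderm and 0.809 ± 0.283 (n = 4) in wild-type HPCs. From mesoderm to HPCs in wild type the log2 difference was -0.2 ± 0.6 for Cd63 and -0.03 ± 0.49 for Cd151. Cd82 had 7 and 10 reads in undifferentiated mESCs and 0 to 5 in any other library, so it was removed by the filter on low counts and is given no fold. An antisense gene, Gm10575, overlaps the start of Cd151 with 51 reads over all 23 libraries, and without a stated strand setting the 2 cannot be separated there.

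By group mean of TMM-scaled CPM, most neighbours in the order of levels overlapped. For Tspan32 the HPC groups overlapped each other (15.9, 14.9 and 13.2 CPM in P1-CTCF-KO, wild type and P2-CTCF-KO) and stood apart from the rest. For Tspan33 the HPC groups overlapped at 5.63, 4.54 and 2.94 CPM in P2-CTCF-KO, wild type and P1-CTCF-KO, and also stood apart. For Tspan18 the highest 5 groups overlapped their neighbours at 7.15 to 13 CPM, and P2-CTCF-KO mesoderm at 0.585 and mESCs at 0.147 were separate. For Tspan12 each group overlapped the next down to P2-CTCF-KO mesoderm at 1.43 CPM, and mESCs at 0.272 were separate. For Cd63, Cd82 and Cd151 each group overlapped the next.

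Against undifferentiated mESCs, wild-type mesoderm differed by a log2 fold change of 5.89 ± 0.91 in Tspan18, 4.02 ± 0.42 in Tspan12, 2.4 ± 0.7 in Tspan32 and 0.98 ± 0.84 in Tspan33. Cd151 and Cd63 had -0.44 ± 0.5 and -0.71 ± 0.55. The pooled ratio for Tspan32 was 6.02 (2.02 to 17.6), from 8 against 9 reads, and that for Tspan33 was 1.86 (1.11 to 3.02), from 22 against 80 reads. These values rest on the TMM factors of mESCs. Per total count the ratios were 0.664 and 0.205, and per count outside ribosomal and multi-locus entries 1.85 and 0.571, so the direction turns for both genes on the first scale and for Tspan33 on the second. In fits with library totals in place of TMM the log2 difference of Tspan18 was 3.03, that of Tspan12 0.85, that of Tspan32 -0.54 and that of Cd151 -3.56, where the median over all genes was -3.27. With totals outside ribosomal and multi-locus entries they were 4.44, 2.32, 0.83 and -2.12, beside a median of -1.8. In each of these fits Tspan18, Tspan12 and Tspan32 lay above the median of all genes and Cd151 below it. That is a description only, since the members were chosen on these counts. Which scaling fits the day 0 libraries cannot be told from the counts.

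A gene was called where edgeR's adjusted p was below 0.05 and its log2 fold change exceeded 1 in either direction. As a description only, 3 of the 6 members that passed the filter were past this rule in wild-type mesoderm against mESCs (3 higher), where 22.8% of all genes tested were. In wild-type HPCs against mesoderm 3 were past it (2 higher, 1 lower) beside 23.1% of genes, in P1-CTCF-KO 2 (2 higher) beside 26.8%, and in P2-CTCF-KO 4 (4 higher) beside 25%. In P2-CTCF-KO against wild-type mesoderm it was 1, Tspan18, beside 0.144% of genes. In the other genotype comparisons it was 0 beside 0%, namely P1-CTCF-KO mesoderm, P2-CTCF-KO HPCs and P1-CTCF-KO HPCs against wild type, where 184, 543 and 589 genes had an unadjusted p under 0.05 in edgeR and DESeq2 called 0, 0 and 2 genes. Nothing is read from these counts, since the members were chosen on such values. Their median log2 fold changes were 1.69, -0.03, 0.36, 2.64 and -1.53 in the first 5 comparisons, beside -0.16, -0.02, -0.16, 0 and 0.01 over all genes.

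**Figure D3:**
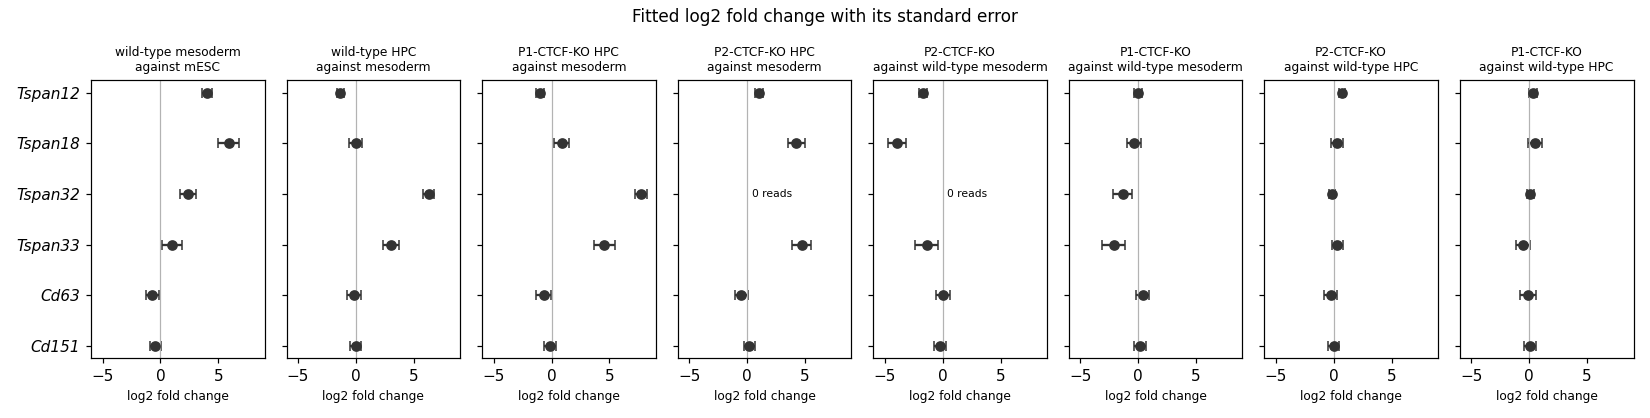
Fitted log2 fold change (horizontal axis, points) with its standard error (whiskers) for the 6 members that passed the filter, 1 panel a comparison. Tspan32 is left out where P2-CTCF-KO mesoderm has 0 reads. Tspan12 lies left of 0 in wild-type and P1-CTCF-KO HPCs against mesoderm (-1.36 and -1) and right of it in P2-CTCF-KO (1.04).

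Levels between genes were compared as CPM per kb of gene span, since reads in introns count. In wild-type HPCs Tspan32 led the 7 at 1.03 ± 0.187 CPM per kb (SD, n = 4), followed by Cd151 at 0.196, Tspan33 at 0.186, Cd63 at 0.0713, Tspan18 at 0.0688, Tspan12 at 0.0219 and Cd82 at 0.00316. In wild-type mesoderm Cd151 led at 0.202 and Tspan32 was next to last at 0.0124. In undifferentiated mESCs Cd151 led at 0.273 and Tspan18 was last at 0.00111. By the mean of the 7 group means, 3 of which are HPCs, Tspan32 ranked 1 of the 31 family genes at 0.438 CPM per kb (5 when not divided by length), ahead of Cd81 at 0.371, Tspan31 at 0.238, Cd151 at 0.211 and Cd9 at 0.193.

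**Figure D4:**
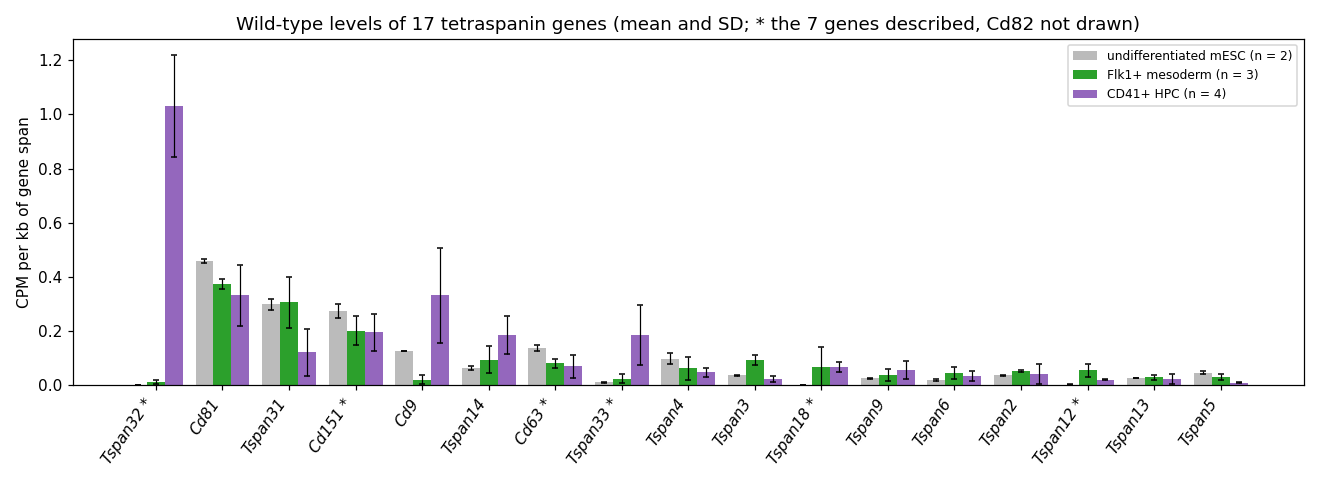
Mean level (CPM per kb of gene span, bars from 0) with SD in wild-type undifferentiated mESCs, Flk1+ mesoderm and CD41+ HPCs for the 17 family genes with the highest mean over the groups, on the TMM scale. Tspan32 in HPCs (1.03) is the tallest bar, and Cd9 is lower in mesoderm (0.0214) than in HPCs (0.332).

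Among the 24 other tetraspanins, 14 passed the filter and were tested with edgeR's quasi-likelihood test. Cd9, a tetraspanin of platelets and stem cells, rose from mesoderm to HPCs in wild type (3.88 ± 0.68, adjusted p = 0.00028), P1-CTCF-KO (4.63, adjusted p = 4.7e-05) and P2-CTCF-KO (3.39 ± 0.66, adjusted p = 0.00051). Its CPM were 0.465, 0.364 and 1.38 in wild-type mesoderm and 14, 7.29, 5.82 and 18.7 in wild-type HPCs. Tspan3 fell from mesoderm to HPCs in wild type (-1.96 ± 0.37, adjusted p = 6e-04), P1-CTCF-KO (-2.5, adjusted p = 4e-04) and P2-CTCF-KO (-1.91 ± 0.34, adjusted p = 0.00021). With library totals in place of TMM the Tspan3 call was lost in wild type (adjusted p = 0.061) and P2-CTCF-KO (0.052), and the Cd9 calls held. From mESCs to wild-type mesoderm Cd9 fell (log2 fold change -2.47 ± 0.71, adjusted p = 0.014), and Tspan3 was higher on the TMM scale (1.35 ± 0.38, adjusted p = 0.013) but lower with library totals (-1.72, adjusted p = 0.0062). By their labels the mESC libraries are technical replicates, so these tests may set technical spread against that of clones. On the TMM scale both calls were lost without either mESC library or without mesoderm B9.3.

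In wild type, 4 of the 14 were called from mesoderm to HPCs, 1 higher and 3 lower, where edgeR called 23.1% of all genes tested. Tspan5 (-1.66 ± 0.48, adjusted p = 0.012) and Tspan7 (-3.11 ± 0.96, adjusted p = 0.019) were the other lower genes. In P1-CTCF-KO 3 rose and 3 fell, beside 26.8% of all genes called. Apart from Cd9 and Tspan3, Tspan14 (1.95 ± 0.56, adjusted p = 0.011) and Tspan9 (1.7 ± 0.65, adjusted p = 0.05, under the threshold before rounding) were higher. Tspan6 (-2.64 ± 0.75, adjusted p = 0.01) and Tspan7 (-3.28 ± 1.2, adjusted p = 0.043) were lower. In P2-CTCF-KO 3 rose and 2 fell, beside 25% of all genes called. Apart from Cd9 and Tspan3, Tspan9 (2.26 ± 0.63, adjusted p = 0.0095) and Tspan14 (1.68 ± 0.53, adjusted p = 0.019) were higher and Tspan5 (-1.21 ± 0.43, adjusted p = 0.035) was lower. With the clone as a replicate block the calls of Tspan7 in wild type (adjusted p = 0.054), Tspan9 and Tspan7 in P1-CTCF-KO (0.06 and 0.09) and Tspan14 in P2-CTCF-KO (0.051) were lost. With 1 library left out, the P2-CTCF-KO call of Tspan5 was lost in 5 of 8 fits (adjusted p = 0.071 to 0.27, log2 fold change -0.75 without mesoderm D10.1), and its libraries overlap. The call of Tspan14 there was lost in 4 of 8 such fits, those of Tspan7 and Tspan9 in P1-CTCF-KO in 6 and 5 of 6, and those of Tspan7 and Tspan5 in wild type in 3 and 1 of 7. The call of Tspan14 in P1-CTCF-KO was lost in 1 of 6, without mesoderm E7.2. The wild-type calls of Tspan5 and Tspan7 were also lost with library totals in place of TMM (adjusted p = 0.19 and 0.091), as was that of Tspan5 in P2-CTCF-KO (0.45). In P2-CTCF-KO the libraries of Tspan9 overlapped too. With separate fits its call there was lost, as were those of Tspan14 and Tspan5. Tspan14 and Tspan5 belong, with Tspan33, to the subgroup that binds Adam10. The medians of the 14 were 0.09 from mESCs to wild-type mesoderm, and from mesoderm to HPCs they were 0.34 in P2-CTCF-KO, -0.28 in P1-CTCF-KO and -0.37 in wild type.

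Between genotypes 0 of the 14 were called in any of the 4 comparisons by edgeR or DESeq2, where edgeR called at most 0.144% of all genes. At an unadjusted p under 0.05 in edgeR there were 2 in P2-CTCF-KO mesoderm, beside 1280 of all 12543 genes, and 0 in each of the other comparisons.

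Of the 18 partner genes, 17 were tested. From mesoderm to HPCs in wild type 5 rose and 4 fell by edgeR's quasi-likelihood test, beside 23.1% of all genes called. Itgb3 (7.95 ± 0.93, adjusted p = 5.7e-06) and Itga2b (4.89 ± 0.71, adjusted p = 5.1e-05) form the platelet integrin, and Itga2b encodes the CD41 used in the sort. Adam10, the protease carried by Tspan33, rose (2.15 ± 0.33, adjusted p = 8.7e-05), as did Itga4 (3.73 ± 0.59, adjusted p = 0.00012), an integrin chain of blood cells. Lrp5, the Tspan12 partner, fell (-2.88 ± 0.44, adjusted p = 8.4e-05).

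The partner counts were alike in the knockouts, with 6 higher and 3 lower in P1-CTCF-KO and 6 higher and 3 lower in P2-CTCF-KO. Of all genes 26.8% and 25% were called there. Adam10 rose by 2.7 ± 0.35 in P1-CTCF-KO (adjusted p = 1.1e-05) and 3.26 ± 0.35 in P2-CTCF-KO (adjusted p = 1.3e-06). The partner of Tspan18, Orai1, had a log2 fold change of 0.23 ± 0.52 in wild type (adjusted p = 0.79), while the sensor Stim1 rose (2.68 ± 0.49, adjusted p = 0.00039). Against mESCs, 4 partners were called higher and 0 lower in wild-type mesoderm on the TMM scale, beside 22.8% of all genes called. They were Adam10 (1.89, adjusted p = 0.0016), Itga2b (4.37, adjusted p = 0.002), Itga4 (3.64, adjusted p = 0.0021) and Lrp5 (1.48, adjusted p = 0.031). Without mesoderm B9.3 the Itga4 call was lost (1.89, adjusted p = 0.18). The Lrp5 call was lost in 4 of 5 fits without a library (adjusted p = 0.073 to 0.16) and with the libraries of a clone summed (0.059). With library totals in place of TMM, Adam10 and Lrp5 were lower in mesoderm (-1.13, adjusted p = 0.031, and -1.57, adjusted p = 0.024), and Itga2b and Itga4 were not called (1.42, adjusted p = 0.11, and 0.75, adjusted p = 0.4). Between genotypes edgeR called 0 partners. Before adjustment 3 had a p under 0.05 in P2-CTCF-KO mesoderm, beside 1280 of all 12543 genes, and 0 in each of the other comparisons. DESeq2 called 1, in P2-CTCF-KO mesoderm, where it called 115 of 8790 genes.

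The genes whose log2 CPM over the 23 libraries were most like each member are given as a description, since all points share stages, clones and libraries. Tspan32 was most like Adgrg1, F10 and Nmnat3 (Pearson r of 0.99 for each). Tspan18 was most like Itpr2 (0.98), Csgalnact1 (0.96) and Fli1 (0.95), and Tspan33 most like Slc22a4 (0.95), Fech (0.95) and Nrip3 (0.94). Tspan12 was nearest to Zeb1 (0.89), Airn (0.86) and Arfgef1 (0.85). Cd63 (Cmtm7 0.83, Klhl22 0.83, Fgd4 0.82) and Cd151 (Pkdcc 0.76, Calr 0.72, 2510039O18Rik 0.71) had weaker matches at lower counts.

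The nearest genes that passed the filter on low counts did not all move with the members. From mesoderm to HPCs in wild type, Smo, 16937 bp from Tspan33, fell (-2.33 ± 0.35, adjusted p = 6.2e-05) by edgeR's quasi-likelihood test. By the same test Igf2os, 334688 bp to the left of Tspan32, fell (-3.05 ± 0.88, adjusted p = 0.013). Its 9 wild-type HPC reads all came from 1 library. R74862, 2297 bp from Tspan32 on the other side, had -0.67 (adjusted p = 0.52) and Cd81 -0.16 (adjusted p = 0.81). Trp53i11, which ends 1 bp from Tspan18 in the table, fell (-3.87 ± 1.2, adjusted p = 0.021). In P2-CTCF-KO against wild-type mesoderm Trp53i11 had 0.6 ± 0.73 (adjusted p = 0.84). Ext2, 361142 bp from Tspan18 on the far side of Cd82, had -0.4 ± 0.22 (adjusted p = 0.57).

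Open chromatin was read from ATAC-seq peak lists of wild-type mesoderm (76766 peaks) and HPCs (29037 peaks), each called on merged libraries, and CTCF sites from 44513 peaks in 416B, a hematopoietic progenitor cell line. By the labels, the HPC list comes from technical replicates of a single experiment, and the mesoderm list from separate experiments. Whether the ATAC-seq and CTCF lists played a part in the choice of genes is not stated. The lists hold positions only, so a missing peak says that none was called and not that the site was closed. The longer mesoderm list holds more peaks in all. Within 1000 bp of the gene start, 5 of the 7 members had a mesoderm peak (Tspan12, Tspan18, Tspan33, Cd63 and Cd82), beside 16 of the 24 other tetraspanins and 55.2% of all genes. In HPCs 4 of the 7 had one (Tspan12, Tspan32, Tspan33 and Cd63), beside 11 of 24 and 37.1% of all genes. A CTCF peak lay within that window at 1 of the 7, Tspan18, beside 2 of 24 and 12.8% of all genes.

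Tspan32 was the member with an HPC peak and no mesoderm peak at its start. The HPC peak, 110 bp wide, was centred at -138 bp from the start (chr7:150190758-150190867), inside the printed upstream region. It is narrower than the median HPC peak of 113 bp and drops out when only wider peaks are kept. The mesoderm peaks were centred at -2133, 1558 and 3150 bp from the start, and the outer 2 of them overlapped the 2 CTCF peaks in 416B cells.

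Tspan18 had the reverse at its start. A mesoderm peak of 244 bp was centred at -56 bp (chr2:93174579-93174822) and no HPC peak was called within 1000 bp, although its HPC RNA level was not lower. Its 4 HPC peaks lay inside the gene span of the count table, 30.7, 30.9, 56.8 and 120 kb from the start, and all 4 overlapped mesoderm peaks. GENCODE gives Tspan18 a shorter span, chr2:93151420-93174663, which holds none of these 4 peaks. In all, 15 mesoderm peaks, 4 HPC peaks and 6 CTCF peaks lay in the gene or within 10 kb of it. The CTCF peak nearest to the start was centred at +888 bp, under a mesoderm peak.

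Tspan33 had a peak at its start in both lists, centred at -62 bp in mesoderm and -104 bp in HPCs, and another shared one in an intron at 7.08 and 7.06 kb. An HPC peak at 3.48 kb had no mesoderm counterpart, and its CTCF peak lay at 18.0 kb. Tspan12 had 4 mesoderm peaks within 1.44 kb of its start and an HPC peak of 177 bp centred at 224 bp (chr6:21802221-21802397), which overlapped the nearest of them. All 3 lists overlapped 57.3 kb into Tspan12. Cd151 had its peaks in all 3 lists around 1.39 to 1.45 kb, at a GENCODE transcript start within the gene, and Cd82 had 5 mesoderm, 0 HPC and 5 CTCF peaks in its span and flanks. Cd63 had an intron peak in both ATAC-seq lists, at 0.834 kb in mesoderm and 0.856 kb in HPCs.

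**Figure D5:**
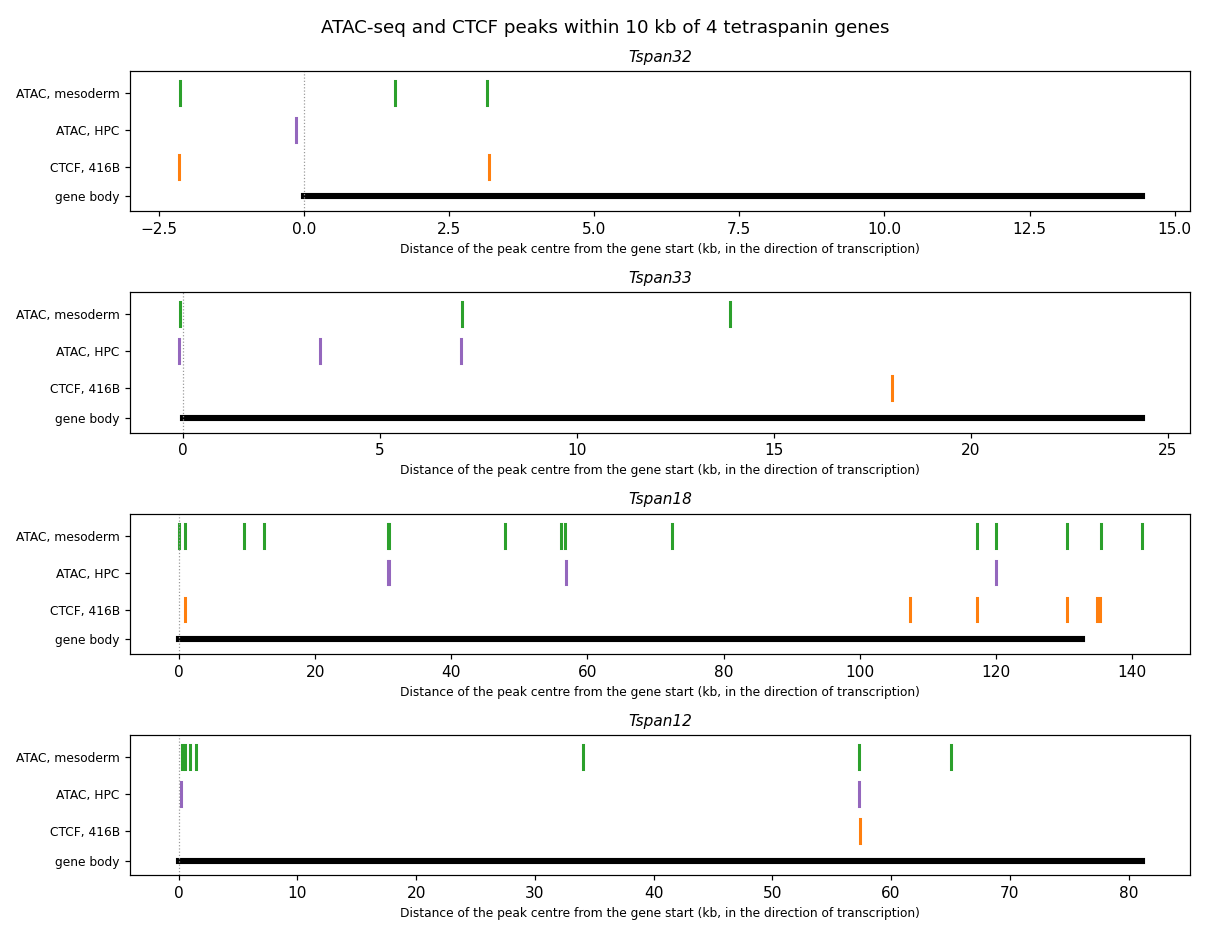
Centres of ATAC-seq peaks in mesoderm (green) and HPCs (purple) and of CTCF peaks in 416B cells (orange) along Tspan32, Tspan33, Tspan18 and Tspan12, by distance from the gene start (kb, in the direction of transcription), with the gene body as a black bar and a scale for each gene. At the dotted start line Tspan32 has an HPC peak only, Tspan18 a mesoderm peak only, and Tspan33 both.

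In windows from 250 bp before to 50 bp after the gene start, RUNX motifs were found in 15.2% of all 24961 promoters, GATA motifs in 2524 of them, ETS motifs in 24.3% and the E-box in 15.6%. Tspan32 held 2 RUNX matches, at -69 bp on the plus strand and -40 bp on the minus strand, a GATA match at -211 bp and an E-box at -187 bp, all in capitals in the sequence above. Of these only the E-box lies inside its HPC peak. Tspan33 held an E-box at -232 bp, Tspan18 one at -14 bp and Cd63 one at -54 bp, and Tspan12, Cd82 and Cd151 held none of the 4 motifs. The printed Tspan18 intron region held a GATA match at base 80, as 15.2% of 295-bp windows on HPC peaks did, and the Tspan12 peak an E-box at base 66, as 14.2% of 177-bp windows did. A match is a description of the letters and no sign of binding.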

How the data were processed

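Poly(A)-minus RNA was sequenced from 23 libraries of E14-TG2a cells, and groups were taken from the sample labels. The count values are raw read counts as deposited: the authors aligned with STAR to mm9, took out PCR duplicates (picard) and used featureCounts per gene, introns included. The annotation and strand setting are not given in the sources used here. Because introns count, long genes collect more reads, and a level mixes spliced and unspliced RNA. The deposited peak lists hold positions only, called by the authors with MACS2 on merged short ATAC-seq fragments and on CTCF ChIP-seq against an input. The Methods name the ATAC-seq cells as a reporter line of E14-TG2a and the labels name E14-TG2a.

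Counts were fitted in R 4.3.3 with edgeR 4.0.16 as 1 model of 23 libraries and 7 groups, with TMM scaling, filterByExpr (minimum count 10) and the quasi-likelihood test, Benjamini-Hochberg adjusted over 12543 genes (16 residual degrees of freedom). Of 25146 genes, 5413 had no counts. The study's tool, DESeq2 1.42.0, was an alternative, and limma 3.58.1 was loaded by edgeR. CPM are TMM-scaled, and 0 columns of the table were left out. The tests were tested on simulated data. Peaks were read in Python 3.11.15 with pandas 2.3.3 against GENCODE genes of NCBIM37 (mm9).

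The members and lists were chosen with earlier results of these data known. Named genes are the members, other tetraspanins and partners past the call rule (the 5 with the smallest adjusted p per comparison) or of highest level, the 3 genes most like each member, and neighbours. Roles and partners not past the rule are named only beside a member they bind. P-values measure the spread between these libraries, some of which are repeats of a clone.

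Clones run through both stages, so same-named libraries share a cell line. Deviations of a clone from its group mean in mesoderm and in HPCs had an r of -0.04 to 0.12 over 12543 genes, and the clone was tried as a block. Alternatives were DESeq2, RLE size factors, no filter, separate fits, removal of 187 ribosomal, multi-locus or very long entries, summed libraries of a clone, no fold limit, each library left out, other peak windows and, added after seeing the data, library totals in place of TMM. For the ATAC-seq lists, keeping only peaks wider than the median was tried too.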

Additional observations from a re-analysis of the deposited data

Results flagged for a closer look

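The change of Tspan12 from mesoderm to HPCs had opposite signs between genotypes, with every library of a stage on 1 side of the other stage. The log2 fold change was -1.36 in wild type and -1 in P1-CTCF-KO, and 1.04 in P2-CTCF-KO. The difference between genotypes was not tested, because the gene was chosen on these counts. Tspan12 in P2-CTCF-KO mesoderm was at 1.24 to 1.63 CPM and in P2-CTCF-KO HPCs at 1.74 to 4.74 CPM, so the stages lie close together there. No library stood far from its group in wild-type HPCs (4 libraries) or P2-CTCF-KO HPCs (5 libraries) for any of the 7 members, which makes 14 checks. Groups of 2 or 3 libraries, the mesoderm groups among them, were not checked.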

How the results depend on the processing

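The count of other tetraspanins called was 0 under every alternative for the comparisons between genotypes. Over all genes the main fit called 22.8% from mESCs to wild-type mesoderm. From mesoderm to HPCs it called 23.1% in wild type, 26.8% in P1-CTCF-KO and 25% in P2-CTCF-KO. For stages the count of other tetraspanins moved as follows. From mesoderm to HPCs in P2-CTCF-KO it was 5, but 2 with separate fits, where 7993 genes were tested, and from 3 (without HPC D10.1) to 8 (without HPC D2.1) with a library left out. In P1-CTCF-KO it was 6, and 2 (without mesoderm E7.2) to 5 with a library left out. In wild type it was 4, and 3 to 4. From mESCs to wild-type mesoderm it was 2, and 0 (without either mESC library or mesoderm B9.3) to 3. With library totals in place of TMM, and with totals outside ribosomal and multi-locus entries, both chosen after seeing the data, these counts were 3 and 4 in P2-CTCF-KO, 1 and 2 in wild type and 5 in P1-CTCF-KO under each, and 13 and 6, all lower, from mESCs to mesoderm. Over all genes, these fits called 11402 of 12543 and 8525 of 11351 from mESCs to mesoderm. In that last comparison, among genes past the call rule, the direction turned for Tspan32 (-0.54), Tspan3 (-1.72), Adam10 (-1.13) and Lrp5 (-1.57) with library totals, and for Tspan3 (-0.3) and Lrp5 (-0.15) with the other totals. Tspan33, which was not past the rule, turned from 0.98 to as low as -2.24 over the alternatives. The cause was not tested. With the clone as a replicate block, the adjusted p was 0.054 for Tspan7 in wild type, 0.06 for Tspan9, 0.09 for Tspan7 and 0.056 for Itga5 in P1-CTCF-KO, and 0.051 for Tspan14 in P2-CTCF-KO, and the block changed no other call among the other tetraspanins and partners. It left 3 in place of 4 members past the call rule in P2-CTCF-KO, without Tspan12. In P1-CTCF-KO, Tspan9 was also lost with RLE size factors (adjusted p = 0.057) and without ribosomal and multi-locus entries (0.056). Members with a CTCF peak at the start numbered 1 within 1000 bp, 0 within 500 bp and 4 within 5000 bp. For HPC peaks these numbers were 4, 3 and 5, and for mesoderm peaks 5, 4 and 7, with Tspan32 among the 7. With only peaks wider than the median, within 1000 bp, 3 members had an HPC peak, without Tspan32, and 5 a mesoderm peak.

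In P2-CTCF-KO against wild-type mesoderm the members past the call rule numbered 1, but 2 with DESeq2, without a filter and with summed libraries, 0 with separate fits, and 0 (without wild-type C8.1 or any P2-CTCF-KO library) to 2 (without wild-type C6.1) with a library left out. Over all genes 18 were called there, 115 with DESeq2, 93 without a filter and 3 with separate fits. The log2 difference of Tspan18 there kept its sign, from -4.46 to -2.71 with a library left out. From mESCs to wild-type mesoderm the median over all genes was -0.16, and -0.04 without ribosomal and multi-locus entries. Not divided by length, Tspan18 moved from place 5 to 2 among the members in wild-type HPCs, Tspan12 from 6 to 4, Cd63 from 4 to 6 and Cd151 from 2 to 5. Cd82, at 0 to 10 reads a library, was too shallow for a comparison, and depth limits Tspan32 and Tspan33 in mesoderm, at 0 to 13 reads.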
